A study of Mus musculus with 48 samples.

Results

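Brown adipose tissue (BAT) of old mice was compared between late and lifelong dietary restriction. The comparison sets 5 libraries of mice restricted late in life (ALDR) against 3 libraries of mice restricted for most of their life (DR), which are 8 of the 48 libraries of the study and 8 of its 20 BAT libraries. The libraries were chosen by their diet, age and tissue in the sample labels, not by any measured value. The study measured RNA in fat depots and liver of female C3B6F1 mice, an F1 hybrid strain, and asked whether diet earlier in life limits the response of old mice to restriction. DR mice received 60% of the intake of freely fed mice from 12 weeks of age. ALDR mice were fully fed until 24 months and were then moved to the same restriction, in weekly steps of 10% over 4 weeks. Both groups are labelled 26 months, although the protocol gives the age at death as 27 months, and both were therefore restricted and alike in sex, strain and age when sampled. All mice were killed within the 3 hours before the restricted animals would have been fed. Fully fed mice (AL), mice returned from restriction to full feeding at 24 months (DRAL), and AL and newly restricted mice of 5 months supplied the levels set beside the main comparison, with 3 BAT libraries in each of these groups. The extraction text names an epididymal depot although the mice were female, so which depot was dissected is uncertain. The titles of the late-restricted BAT libraries read ADRL, and their descriptions give the switch from full feeding to restriction.

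Brown fat burns fuel to make heat. Noradrenaline from sympathetic nerves acts on beta-adrenergic receptors of the brown adipocyte, which raises cyclic AMP, releases fatty acids from lipid droplets and induces Ucp1, whose protein uncouples mitochondrial respiration from ATP synthesis. Local conversion of thyroid hormone to its active form by the deiodinase Dio2 adds to this response, and calcium and creatine cycles can also produce heat. Brown fat activity responds to food supply as well as to cold.

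Library totals ran from 14924429 to 19349912 counts in ALDR. In DR they ran from 6075585 counts in replicate 2 to 16256603 counts, so that the level reached by 3 counts was 0.157 to 0.489 CPM over the 8 libraries (CPM are counts relative to library sizes adjusted by TMM, the trimmed-mean factor of edgeR). Cidea, a lipid droplet protein of brown adipocytes, lay between 1680 and 2183 CPM in ALDR and between 1957 and 2073 CPM in DR, and Ucp1 was abundant in all 8, so these defining markers of brown fat were present. ALDR replicate 5 stood apart. Genes of milk proteins, such as the caseins and whey acidic protein, took 941246 of its counts (6.31%), against 12 to 238 counts in each of the other 7 libraries, and its summed level of epithelium and skin genes was 426 CPM against 9.96 to 57.9 CPM in the others. ALDR replicate 3 had the highest skeletal muscle sum (9645 CPM, with 624 to 2194 CPM in the other ALDR libraries and 1529 to 6332 CPM in DR). ALDR replicate 1 had the highest levels of Ucp1 and of the lipid synthesis genes Fasn, Acly, Acaca and Elovl6. In bulk tissue, fewer cells of a type and less RNA per cell cannot be told apart. The labels call the libraries biological replicates without saying how animals were assigned. The p-values of the main fit rest on the spread between libraries within the groups of all 20 BAT libraries, not of these 8 alone.

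Of 13845 genes tested, 722 differed between ALDR and DR (5.21%; edgeR's quasi-likelihood test, Benjamini-Hochberg (BH) adjusted p under 0.05, which is what called means throughout). In ALDR, 269 genes were higher (1.94% of those tested) and 453 were lower (3.27%). The most strongly separated of the lower genes included Pck2, Tspan4, Grik5 and Impdh1, and among the higher genes were Cdh9, Map7d2, Ryr2 and the thyrotropin receptor Tshr. The median absolute log2 fold change of called genes was 0.59, and 57 higher and 103 lower genes reached at least 1. The 5 ALDR and 3 DR libraries did not overlap for 257 of the higher and 418 of the lower genes. These genes were called on the same values, so this is no separate support. The share without overlap over all tested genes was not counted. The median log2 fold change over all tested genes was 0.01.

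The count of 722 rested strongly on single DR libraries. Without DR replicate 1 it was 95 (21 higher, 74 lower), without DR replicate 2 it was 351, without DR replicate 3 it was 380, and without ALDR replicate 4 it was 454. Without ALDR replicate 5, the library with milk protein counts, 763 genes were called (306 higher, 457 lower), of which 600 were among the 722. A fit of the 8 libraries alone called 63 genes, 12 higher and 51 lower, all among the 722. There were 52 genes called in the main fit and under all 16 alternative settings, 9 of them higher and 43 lower in ALDR.

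**Figure D1:**
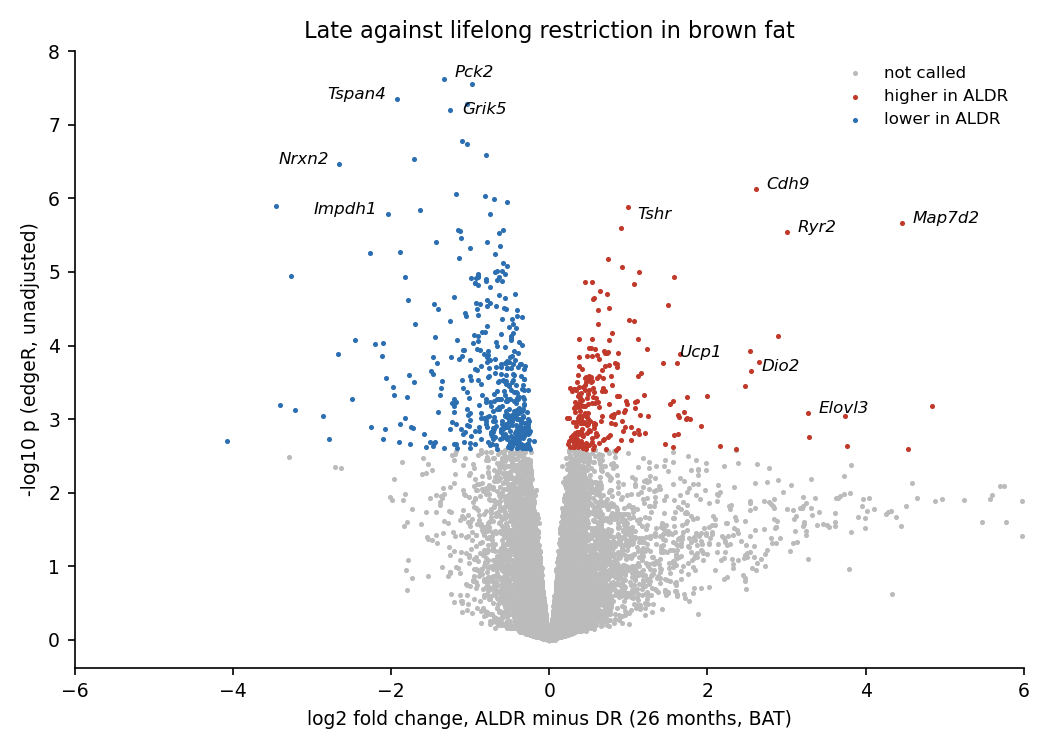
Each point is 1 of the tested genes, with the log2 fold change of ALDR minus DR on the x axis and -log10 of the unadjusted edgeR p on the y axis; red and blue points are the 269 higher and 453 lower called genes, and 15 genes beyond 6 on the log2 scale (1 of them called) lie outside the plot. Pck2, Tusc3 (not labelled, log2 fold change -0.98) and Tspan4 top the lower side, and Cdh9, Ryr2 and Map7d2 stand out on the higher side.

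Several core heat-production genes were higher after late than after lifelong restriction. Of 25 tested genes of brown fat identity and thermogenesis, 6 were called higher (Ucp1, Dio2, Adrb3, Otop1, Elovl3 and Gk), 1 was called lower (P2rx5) and 18 did not pass the test. Over all genes 1.94% were called higher and 3.27% lower. The median log2 fold change of the list was 0.08. The last 3 of the higher genes were named after their values were seen. The promoters of Ucp1 and Dio2 are shown because these genes carry the heat-production result and are classic cyclic AMP targets, and that of Pck2 because it is the most strongly separated gene in the opposite direction. They run from 250 bases before to 50 bases after the RefSeq start (GRCm38.p6), 5′ to 3′ on the gene's strand, and capitals mark TGACG, the half-site of the cyclic AMP response element, or AGGTCA, the nuclear receptor half-site, on either strand.
Ucp1: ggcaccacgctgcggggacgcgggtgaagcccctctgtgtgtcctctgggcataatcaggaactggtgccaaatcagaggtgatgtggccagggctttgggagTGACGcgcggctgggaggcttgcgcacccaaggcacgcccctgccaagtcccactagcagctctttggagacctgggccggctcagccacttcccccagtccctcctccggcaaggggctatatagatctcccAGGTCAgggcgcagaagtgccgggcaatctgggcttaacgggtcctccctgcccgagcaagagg
Dio2: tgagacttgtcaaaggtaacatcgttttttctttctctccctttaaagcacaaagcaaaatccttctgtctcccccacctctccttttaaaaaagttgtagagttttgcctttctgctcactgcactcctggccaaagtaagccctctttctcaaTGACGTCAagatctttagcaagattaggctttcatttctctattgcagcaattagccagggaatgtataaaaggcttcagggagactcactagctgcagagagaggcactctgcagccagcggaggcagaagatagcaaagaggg
Pck2: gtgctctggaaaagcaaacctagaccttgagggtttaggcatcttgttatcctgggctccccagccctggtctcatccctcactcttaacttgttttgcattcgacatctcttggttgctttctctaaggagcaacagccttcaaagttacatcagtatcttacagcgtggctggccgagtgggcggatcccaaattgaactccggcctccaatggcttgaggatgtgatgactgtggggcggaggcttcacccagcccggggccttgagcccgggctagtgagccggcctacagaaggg
The Ucp1 window (chr8:83290098-83290397, plus strand) held 1 copy of each half-site. In the Dio2 window (chr12:90738989-90739288, minus strand) 2 copies of the cyclic AMP half-site, 1 on each strand, overlap as a palindrome. The Pck2 window (chr14:55540016-55540315, plus strand) held neither motif. Among 32817 promoters of the same length, 20.8% held TGACG and 16.3% held AGGTCA on at least 1 strand.

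Ucp1 (ENSMUSG00000031710, chr8:83290352-83298452, plus strand) stood at 5950, 2775, 2810, 3375 and 3757 CPM in ALDR replicates 1 to 5 and at 937, 1928 and 1280 CPM in DR replicates 1 to 3. Every ALDR library was above every DR library, and replicate 1 was the highest of the ALDR group. The log2 fold change was 1.43 ± 0.30 (SE; edgeR adjusted p = 0.0132). AL libraries lay between 3154 and 4772 CPM and DRAL libraries between 2717 and 4462 CPM, so that DR alone was low among the 26 month groups.

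Dio2 (ENSMUSG00000007682, chr12:90724552-90738438, minus strand), the deiodinase that activates thyroid hormone, was at 17.8, 55.6, 78.7, 59.4 and 58.8 CPM in the ALDR libraries and at 3.87, 16.9 and 8.78 CPM in DR. ALDR replicate 1, which was highest for Ucp1, was lowest here and lay just above DR replicate 2. The log2 fold change of Dio2 was 2.55 ± 0.55 (SE; edgeR adjusted p = 0.0148). Elovl3, an elongase of very long chain fatty acids that brown fat induces in the cold, had 184, 37.9, 42.3, 66.8 and 151 CPM in ALDR and 5.52, 18.2 and 7.99 CPM in DR, without overlap (log2 fold change 3.28 ± 0.81 (SE); edgeR adjusted p = 0.029). Its spread in the fully fed mice was wide, from 11 to 116 CPM. Adrb3, the beta-adrenergic receptor typical of adipocytes, was narrow in ALDR, at 230 to 264 CPM, against 115, 135 and 175 CPM in DR (log2 fold change 0.76 ± 0.16 (SE); edgeR adjusted p = 0.0135).

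Glycerol kinase Gk, which recycles glycerol into triglyceride, had 126 to 230 CPM in ALDR and 23.4, 86.2 and 49 CPM in DR (log2 fold change 1.73 ± 0.44 (SE); edgeR adjusted p = 0.031). Its ALDR libraries also lay above the AL libraries, which held 86.9 to 123 CPM. The proton channel gene Otop1 was at 220 to 342 CPM in ALDR and 141 to 184 CPM in DR, a log2 difference of 0.68 ± 0.16 (SE). P2rx5, an ATP-gated channel found on brown adipocytes, went the other way, with 49.3 to 82 CPM in ALDR and 94.7 to 116 CPM in DR (log2 fold change -0.61 ± 0.13 (SE); edgeR adjusted p = 0.014). Of 8 brown adipocyte markers 2 were called, Ucp1 and Elovl3, both higher, beside 1.94% higher and 3.27% lower over all genes. Prdm16, Ebf2, Zic1, Cidea and Ppargc1a of that list were not called. Their log2 fold changes were -0.31, -0.23, 0.11, -0.02 and 0.02. Cox8b was not called either (0.15). The summed level of 8 brown adipocyte markers, of which Ucp1 is the largest, was 5305 to 8770 CPM in ALDR and 3487 to 4406 CPM in DR, while that of 8 general adipocyte markers overlapped, at 11130 to 15640 and 12080 to 12990 CPM; the part of cell makeup in these differences was not tested.

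The 6 higher calls depended on the libraries and on the fit. None of the 6 was called without DR replicate 1, with edgeR adjusted p = 0.106 for Ucp1, 0.114 for Dio2 and 0.115 for Adrb3, and the log2 fold changes were 1.22, 2.13 and 0.63. Leaving out DR replicate 3 gave an adjusted p of 0.0527 for Ucp1, 0.0615 for Dio2, 0.106 for Elovl3 and 0.104 for Gk. Leaving out DR replicate 2 gave 0.0551 for Adrb3, 0.0508 for Otop1 and 0.0505 for Elovl3. Elovl3 also lost its call without ALDR replicate 1 (0.0502) and Gk without ALDR replicate 4 (0.0546), and all 6 remained called without ALDR replicate 5. In the fit of the 8 libraries alone none of the 6 was called, with edgeR adjusted p from 0.054 (Adrb3) to 0.0997 (Otop1). When ALDR replicate 5 was left out of that fit, Adrb3 was called and the other 5 were not. With an epithelium marker score of each library as a covariate, Elovl3 and Gk lost their calls. The lower gene, P2rx5, lost its call without DR replicate 1 (edgeR adjusted p = 0.102), without DR replicate 3 (0.0563) and in the fit of the 8 libraries alone (0.115).

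**Figure D2:**
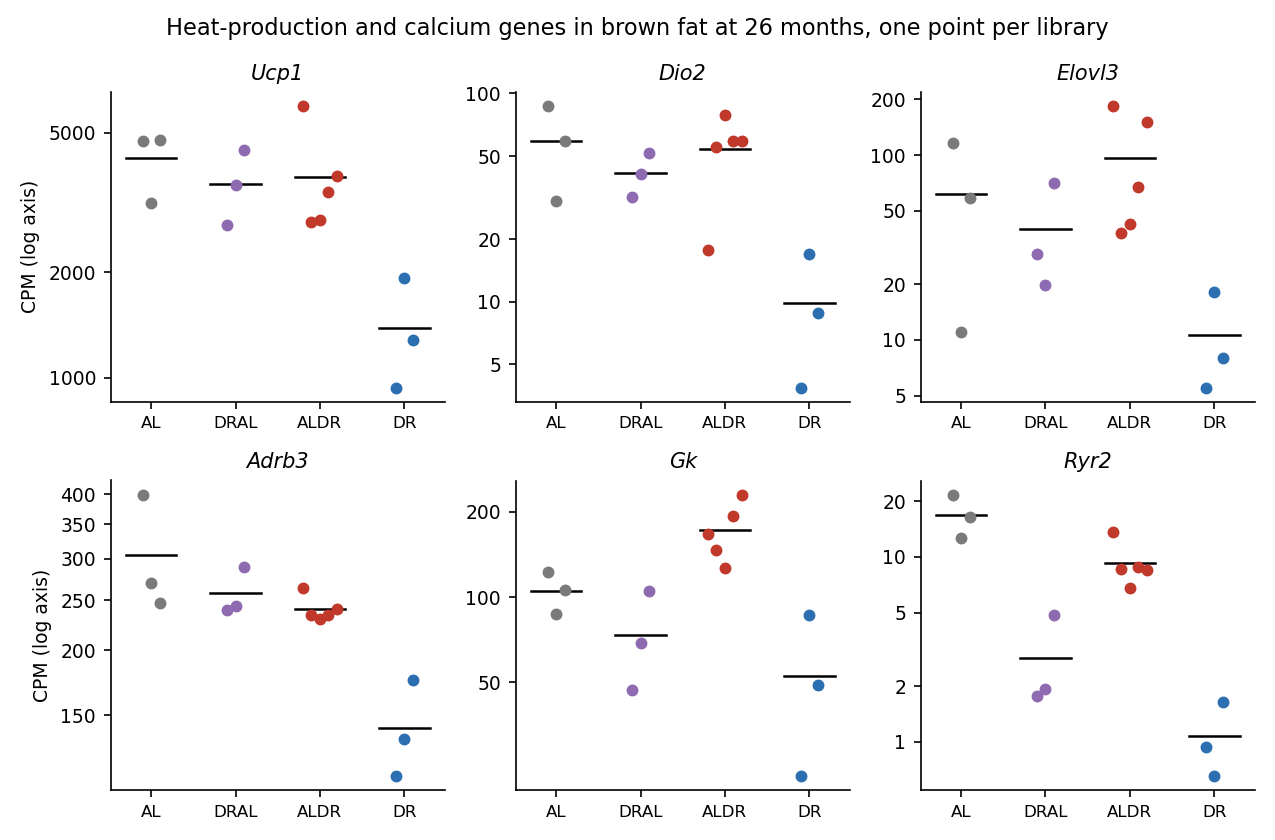
Levels of 6 genes in BAT at 26 months in CPM (log axis), with 1 point per library and a bar at each group's mean, for fully fed (AL), refed (DRAL), late-restricted (ALDR) and lifelong-restricted (DR) mice. The 3 DR libraries lie below all 5 ALDR libraries in each panel, and for Ryr2 the DRAL libraries lie near DR.

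Calcium and creatine cycling genes went in both directions. Of 10 tested, Ryr2 and Alpl were called higher and Slc6a8 and Ckb lower, beside 1.94% higher and 3.27% lower over all genes, and the median log2 fold change was -0.11 (0.03 without ALDR replicate 5). Ryr2 (ENSMUSG00000021313, chr13:11553102-12106945, minus strand), a calcium release channel of the endoplasmic reticulum, was at 13.7, 8.58, 6.78, 8.87 and 8.54 CPM in ALDR and at 0.932, 0.652 and 1.65 CPM in DR. The groups were far apart, with a log2 fold change of 3.00 ± 0.45 (SE; edgeR adjusted p = 0.00153). It was called under all 16 alternatives. AL held 12.6 to 21.8 CPM and DRAL 1.77 to 4.86 CPM. Slc6a8, the creatine transporter, had 24.4 to 43.8 CPM in ALDR and 57.9 to 92.7 CPM in DR (log2 fold change -1.07 ± 0.20 (SE); edgeR adjusted p = 0.00546), and creatine kinase Ckb had 25.3 to 40.8 against 45.6 to 58.1 CPM (-0.68 ± 0.18 (SE); edgeR adjusted p = 0.0342). Alpl, a phosphatase, was at 18.7 to 25.9 CPM in ALDR and 12.2 to 15.3 CPM in DR (0.68 ± 0.19 (SE); edgeR adjusted p = 0.0425). Without DR replicate 1, of these 4 only Ryr2 was called, and Alpl and Ckb each lost their call in 6 of the 8 fits that left out 1 library.

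Among 13 tested genes of the thyroid hormone axis, Tshr and Dio2 were higher and Rxrg was lower, beside 1.94% and 3.27% of all genes. Tshr (ENSMUSG00000020963, chr12:91384563-91549808, plus strand), the receptor for thyroid-stimulating hormone, was at 11, 15.5, 13.7, 13.3 and 16.2 CPM in ALDR and at 5.74, 8.31 and 8.42 CPM in DR. These groups did not overlap, and both lay below AL (30.2 to 33.5 CPM) and DRAL (24.4 to 25.3 CPM). The log2 fold change was 0.91 ± 0.13 (SE; edgeR adjusted p = 0.00153) and remained called in all 8 fits without 1 library. In the fit of the 8 libraries alone its adjusted p was above the threshold, and 0.0768 was the largest over all alternatives. The retinoid X receptor gene Rxrg differed by -0.36 ± 0.10 (SE; edgeR adjusted p = 0.0457) and was called under 1 of 16 alternatives. The receptors Thra and Thrb were not called, at -0.17 and -0.08.

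In lipolysis and lipid droplet genes, 2 of 19 were higher (Abhd5 and Adrb3) and none was lower, beside 1.94% and 3.27% of all genes, and the median log2 fold change of the list was 0.24. Abhd5, the coactivator of adipose triglyceride lipase, was at 109 to 126 CPM in ALDR, 67.4 to 86.5 CPM in DR and 79.6 to 91.9 CPM in AL (log2 fold change 0.57 ± 0.10 (SE); edgeR adjusted p = 0.00425). Here the ALDR libraries lay above both other groups. Both lost their calls without DR replicate 1, and for Abhd5 the largest adjusted p over its alternatives was 0.0592.

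More genes were called lower than higher, 453 against 269, and with DESeq2 the numbers were 604 and 527. Pck2 (ENSMUSG00000040618, chr14:55540266-55551242, plus strand), the mitochondrial phosphoenolpyruvate carboxykinase, was at 13.3, 19.9, 17.5, 17.1 and 19.8 CPM in ALDR and at 55.1, 37.3 and 39.7 CPM in DR. The ALDR libraries lay close to AL (11 to 13.1 CPM) and DRAL (13.2 to 14.3 CPM), and only DR was high. Its log2 fold change was -1.33 ± 0.14 (SE; edgeR adjusted p = 0.000172). Tspan4 (chr7:141475240-141493427, plus strand), a tetraspanin of migrasomes, was at 26, 39.2, 34.8, 29.6 and 18.2 CPM in ALDR and at 152, 87 and 98 CPM in DR, against 22.1 to 27.5 CPM in AL (log2 fold change -1.93 ± 0.21 (SE); edgeR adjusted p = 0.000172).

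Impdh1 (chr6:29200434-29216364, minus strand), an enzyme of guanine nucleotide synthesis, had 189, 370, 301, 298 and 139 CPM in ALDR and 1243, 888 and 1074 CPM in DR. It was the most abundant of the 12 lower genes chosen by rank, and its log2 fold change was -2.04 ± 0.29 (SE; edgeR adjusted p = 0.00112). Grik5 (chr7:25009849-25072346, minus strand), a kainate-type glutamate receptor subunit, held 15.8 to 23.7 CPM in ALDR and 46.2 to 54.1 CPM in DR (-1.26 ± 0.14 (SE); edgeR adjusted p = 0.000172). The presynaptic adhesion gene Nrxn2 was at 0.642 to 2.16 CPM in ALDR, 6.16 to 11.2 CPM in DR and 2.22 to 3.53 CPM in AL (-2.65 ± 0.34 (SE); edgeR adjusted p = 0.000469). The summed level of the Schwann cell and neuron markers was 182 to 258 CPM in ALDR and 159 to 175 CPM in DR. The part of cell makeup in the differences of Grik5 and Nrxn2 was not tested.

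The other 7 of these 12 genes were Abcc4, an exporter of cyclic nucleotides, the sialyltransferase St3gal4, the lipid transfer gene Osbpl5, Sspo, the cation channel Trpm4, the noncoding RNA Snhg11 and the actin regulator Abi2. Their log2 fold changes ran from -1.70 (Sspo) to -1.04 (Osbpl5 and Abcc4), with edgeR adjusted p from 0.000359 or less for Abcc4, St3gal4 and Osbpl5 to 0.00153 for Abi2. None of these 12 genes lost its call under any of the 16 alternatives, with adjusted p of at most 0.03 for Impdh1 and less for the others. The rule for the 12 required libraries that do not overlap, so the absence of overlap is not a finding for them.

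**Figure D3:**
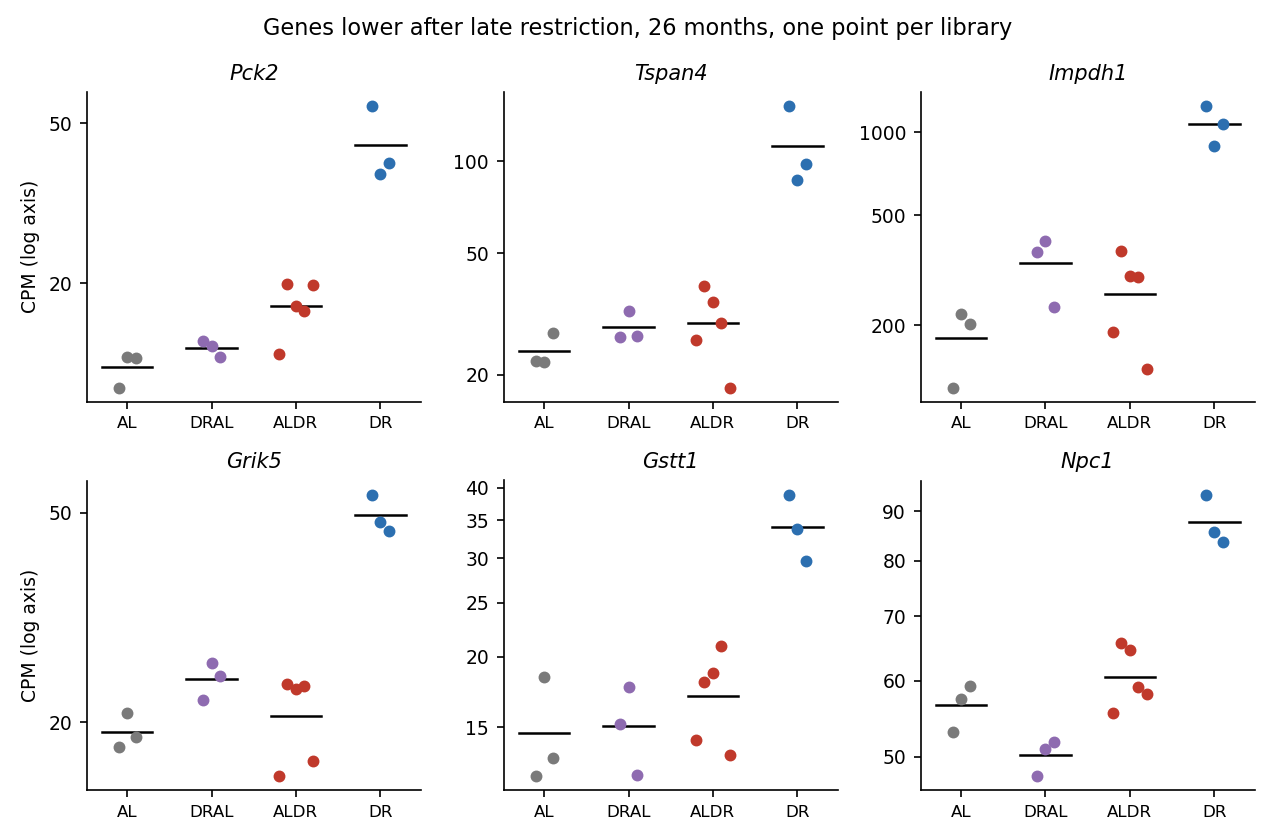
Levels of 6 genes in BAT at 26 months in CPM (log axis), with 1 point per library and a bar at each group's mean, in the same 4 groups. The 3 DR libraries lie above every ALDR, AL and DRAL library in all 6 panels.

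Of 22 antioxidant and glutathione genes tested, 5 were called lower and 1 higher, beside 3.27% lower and 1.94% higher over all genes, and their median log2 fold change was -0.08 (-0.01 without ALDR replicate 5, where 4 were called lower). The lower ones were 4 glutathione S-transferases and the extracellular glutathione peroxidase Gpx3. Gstt1 (chr10:75783813-75798584, minus strand) was at 14.2, 18.1, 18.7, 20.9 and 13.4 CPM in ALDR and 38.9, 33.7 and 29.6 CPM in DR, without overlap. Its log2 fold change of -0.996 ± 0.15 (SE; edgeR adjusted p = 0.00201) kept its call under all 16 alternatives. Gstm1 and Gstm2 differed by -0.42 ± 0.09 and -0.66 ± 0.15 (SE; edgeR adjusted p = 0.0187 and 0.0208), and Gsta3, named after its values were seen, by -1.25 ± 0.33 (SE; edgeR adjusted p = 0.0358). Near-identical members of this family may share reads. Gsta3 overlapped slightly between groups, at 1.95 to 6.03 CPM in ALDR and 5.98 to 11.9 CPM in DR. Gpx3 overlapped too, at 503 to 1348 CPM in ALDR and 1165 to 2537 CPM in DR (-1.08 ± 0.29 (SE); edgeR adjusted p = 0.0388, and 0.0557 without ALDR replicate 5). Sod3, the extracellular superoxide dismutase, was the higher gene, at 188 to 238 CPM in ALDR and 130 to 146 CPM in DR (0.61 ± 0.11 (SE); edgeR adjusted p = 0.00682). Without DR replicate 1 only 1 of the 5 lower genes, Gstt1, was called, and Sod3 had an adjusted p of 0.0653.

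In lysosome and autophagy genes, 1 of 26 was called higher and 1 lower, a share near the 5.21% called over all genes. Npc1, which exports cholesterol from lysosomes, was at 55.5 to 65.6 CPM in ALDR and 83.6 to 93.7 CPM in DR (log2 fold change -0.53 ± 0.09 (SE); edgeR adjusted p = 0.00291), and was called under all 16 alternatives. The protease Ctsz had 152 to 324 CPM in ALDR against 121 to 130 CPM in DR (0.87 ± 0.22 (SE); edgeR adjusted p = 0.0287), and was not called without any 1 of the 3 DR libraries.

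Enzymes of glucose use were called in both directions. Of 22 glycolysis genes 3 were higher and none was lower, and of 21 genes of glycogen metabolism and gluconeogenesis 1 was higher and 2 were lower, beside 1.94% higher and 3.27% lower over all genes. Pfkfb1, which makes the activator of phosphofructokinase, was at 52.5 to 64 CPM in ALDR and 28.8, 29.2 and 44.7 CPM in DR (log2 fold change 0.75 ± 0.14 (SE); edgeR adjusted p = 0.00494). Hexokinase Hk1 and phosphofructokinase Pfkp were higher by 0.71 ± 0.16 and 0.91 ± 0.25 (SE; edgeR adjusted p = 0.0205 and 0.0425), with ALDR replicate 1 far above the rest of its group for both. In the second list the glycogen synthase Gys2 was higher, at 25.9 to 93.3 CPM in ALDR and 9.7 to 18.2 CPM in DR (1.99 ± 0.47 (SE); edgeR adjusted p = 0.0224), and the glycogen phosphorylase Pygb was lower, at 120 to 165 against 179 to 201 CPM (-0.46 ± 0.10 (SE); edgeR adjusted p = 0.0173), beside Pck2. Without DR replicate 1, Gys2 had an edgeR adjusted p of 0.135, and Pfkfb1, Hk1, Pfkp and Pygb also lost their calls.

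Cholesterol synthesis had 1 call among 22 genes, a share near the 5.21% of all genes. Fdft1, the squalene synthase, was at 102 to 207 CPM in ALDR, 256 to 355 CPM in DR and 91.8 to 104 CPM in AL (log2 fold change -0.93 ± 0.20 (SE); edgeR adjusted p = 0.0143). Other lists held 1 to 3 calls each among 21 to 35 tested genes, and single genes are given here rather than a result on the lists. Among matrix genes, the lysyl oxidase family member Loxl1 and the fibrillin Fbn1 were higher, by 1.51 and 0.86, and the protease inhibitor Timp3 was lower, by -0.46. Single calls were Etfdh (0.47) in fatty acid oxidation, Pcca (0.56) in branched-chain amino acid breakdown, Manf (0.74) among chaperones, Igf2r (-0.39) in insulin and IGF signalling and Nrg4 (-0.55), a secreted factor of brown fat. In the amino acid stress list Aars was higher (0.39) while Mthfd2 (-1.58) and Pck2 were lower. Without DR replicate 1, of the genes of this paragraph only Loxl1 and Pck2 remained called.

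**Figure D4:**
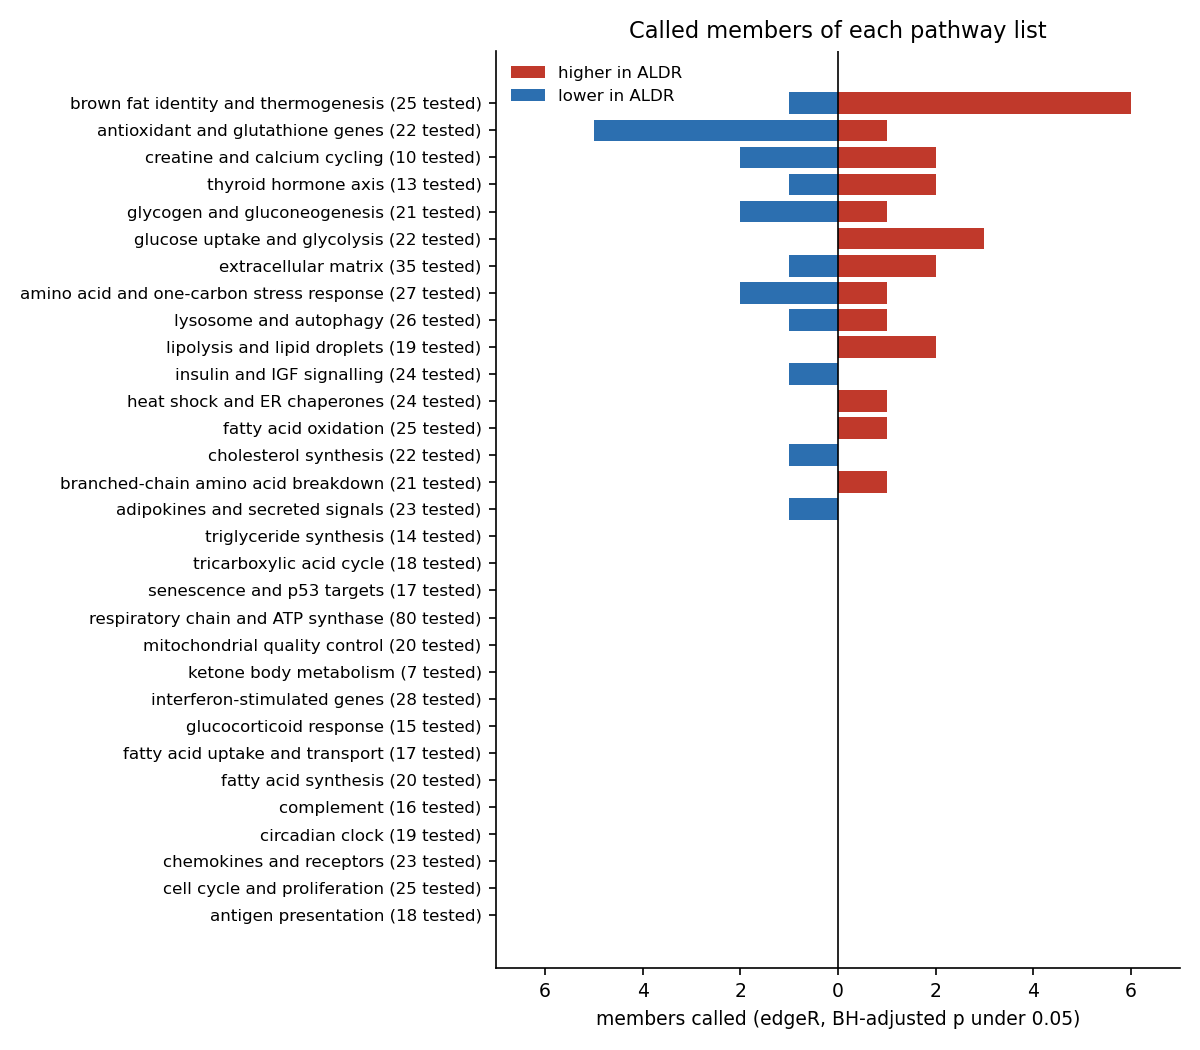
Bars give the number of called members of each of 31 pathway lists, higher in ALDR to the right (red) and lower to the left (blue), with the number of tested members beside each name. The thermogenesis list holds the most higher calls (6) and the antioxidant list the most lower calls (5), and 15 lists hold none.

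Over all 31 lists 39 of 670 tested genes were called, or 5.82%, near the 5.21% of all genes. Large parts of brown fat metabolism gave no call. None of 80 respiratory chain and ATP synthase genes passed the test, and their median log2 fold change was -0.05. ALDR replicate 5, the library with milk protein counts, was the lowest of its group for 77 of the 80, so the median rested on it: without that library it was 0.06, with 62 positive in place of 31, and again none was called. None of 20 fatty acid synthesis genes passed the test either, and 1 did without ALDR replicate 5 (Fads1, lower). In that fit Pdhx and Sucla2 of the tricarboxylic acid cycle and the chemokine Ccl11 were called higher, from lists with no call in the fit of all libraries. Fasn, the fatty acid synthase, was at 36270, 22080, 22850, 25190 and 15930 CPM in ALDR and 24520, 28330 and 20390 CPM in DR, a log2 difference of 0.00 ± 0.30 (SE; edgeR adjusted p = 0.998) whose sign depended on the libraries included. Acly, Acaca and Elovl6 had differences of -0.07 ± 0.46, 0.24 ± 0.29 and -0.04 ± 0.27 (SE), with ALDR replicate 1 the highest of its group for each; the sign of Acly and Elovl6 also depended on the fit. Leptin (Lep) was at 8.29 to 108 CPM in ALDR and 20.4 to 30.7 CPM in DR (0.69 ± 0.52 (SE); edgeR adjusted p = 0.479). A p above the threshold does not show that the groups were alike.

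Neither the clock genes (none of 19) nor the transport of fatty acids (none of 17) gave a call, although without ALDR replicate 5 the transport genes Fabp4 (higher), Apoe and Lrp1 (lower) were called. Per2 was at 21.1 to 48.1 CPM in ALDR and 41.4 to 60 CPM in DR (-0.45 ± 0.28 (SE); edgeR adjusted p = 0.373), and the fatty acid transporter Slc27a1 was at 254 to 387 and 333 to 423 CPM (-0.20 ± 0.15 (SE); edgeR adjusted p = 0.445). For these 2 genes both restricted groups lay above AL, which held 4 to 5.46 CPM of Per2 and 147 to 171 CPM of Slc27a1.

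No immune gene of the complement, interferon, chemokine or antigen presentation lists was called, and the lists differed in sign. Over all tested genes 7263 of 13845 log2 fold changes were positive. Of 16 complement genes 15 had positive log2 fold changes with a median of 0.66, and of 12 macrophage markers all 12 were positive with a median of 0.65 and a summed level of 208 to 419 CPM in ALDR and 132 to 223 CPM in DR. C4b came closest in the complement list, at 20.9 to 60.1 CPM in ALDR and 13.7 to 23.5 CPM in DR (1.33 ± 0.43 (SE); edgeR adjusted p = 0.0788). Of 28 interferon-stimulated genes 22 were positive and of 23 chemokine genes 19. Antigen presentation genes had 7 positive of 18 (median -0.07; 2 of 18 and -0.22 without ALDR replicate 5), and B and plasma cell markers 1 of 7 (median -0.36).

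Cdh9 (ENSMUSG00000025370, chr15:16728756-16857094, plus strand), a cadherin adhesion gene, was at 8.7, 7.95, 6.08, 7.16 and 4.88 CPM in ALDR and at 1.43, 0.652 and 1.16 CPM in DR (log2 fold change 2.62 ± 0.35 (SE); edgeR adjusted p = 0.000931). AL lay at 4.87 to 6.29 CPM and DRAL at 1.26 to 1.62 CPM. Map7d2 (chrX:159414572-159498757, plus strand), a microtubule-associated protein gene, followed the same order, at 2.47, 3.56, 8.17, 10.3 and 5.2 CPM in ALDR, 0.0717, 0.163 and 0.488 CPM in DR, 1.84 to 3.97 CPM in AL and 0.143 to 0.337 CPM in DRAL. DR replicates 1 and 2 were below the level of 3 counts for Map7d2, so its log2 fold change of 4.46 ± 0.65 (SE; edgeR adjusted p = 0.00144) depends on the fit's prior count. For Cdh9, Map7d2 and Ryr2 the mice fully fed for most of life (AL and ALDR) were high and those restricted for most of life (DR and DRAL) were low, with no overlap between these library values. That order was noticed after the values were seen and was not tested.

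Gpc1, a cell surface proteoglycan, was at 37.8 to 48.6 CPM in ALDR and 15.7 to 24.2 CPM in DR, with 17 to 25.1 CPM in DRAL and 34 to 40 CPM in AL (1.14 ± 0.19 (SE); edgeR adjusted p = 0.00302). Hp, the haemoglobin scavenger haptoglobin, was at 486 to 791 CPM in ALDR and 290 to 363 CPM in DR (1.07 ± 0.18 (SE); edgeR adjusted p = 0.00308). The potassium channel gene Kcnj15 was higher by 1.57 ± 0.26 (SE; edgeR adjusted p = 0.00302). Fam19a5, Chd3, Insyn1, Thg1l and Ube2ql1 completed the 12 higher genes named by rank, with log2 fold changes from 1.02 to 2.54, and these 5 lost their calls without DR replicate 1. The abundant called genes were Ucp1, Gnas (0.46 ± 0.13), the coenzyme Q kinase Coq8a (-0.68 ± 0.15), Gpx3, Aplp2 (-0.59 ± 0.13) and Ahnak (-0.56 ± 0.15, all SE). Gnas, the stimulatory G protein subunit that couples adrenergic receptors to cyclic AMP, was at 2914 to 3422 CPM in ALDR and 2084 to 2601 CPM in DR (edgeR adjusted p = 0.0495), and was called under 3 of 16 alternatives. Ahnak was called under 5 of 16, and Coq8a, Aplp2 and Ahnak lost their calls without DR replicate 1 (edgeR adjusted p = 0.121, 0.106 and 0.15).

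The BAT comparisons with AL at 26 months share their ALDR or DR libraries with the main comparison, so their values are only set beside it. DR differed from AL in 1594 genes (11.5%) and ALDR from AL in 180 (1.3%). Ucp1 differed from AL by -1.61 in DR and by -0.18 in ALDR, Pck2 by 1.83 and 0.50, Impdh1 by 2.57 and 0.53, and Ryr2 by -3.87 and -0.87. Of these 8 values the 4 in DR were called and the 4 in ALDR were not. Tshr was called in both, at -2.12 in DR and -1.21 in ALDR (edgeR adjusted p = 4.44e-07 and 5.6e-05).

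Restriction of young mice gave a comparison from separate libraries, ALDR against AL at 5 months, in which 1997 genes were called (14.4% of those tested). Of the 722 genes that differed between late and lifelong restriction, 293 (40.6%) were also called at 5 months, which is 14.7% of the young list. Their directions were opposite for 283 of the 293: 188 genes that were lower in ALDR than in DR at 26 months rose with restriction at 5 months, and 95 that were higher fell. The other 10 had the same sign. Without DR replicate 1 the shared genes numbered 59, without DR replicate 2 they were 185 and without DR replicate 3 they were 158.

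Pck2 rose at 5 months by 1.57 ± 0.16 (SE; edgeR adjusted p = 2.85e-05), from a mean of 17.3 to 51.2 CPM. That young restricted mean was near the DR mean of 44.1 CPM at 26 months and far from the late-restricted mean of 17.5 CPM. Impdh1 rose from 261 to 838 CPM and Tspan4 from 29.9 to 67 CPM, by 1.68 ± 0.34 and 1.17 ± 0.25 (SE; edgeR adjusted p = 0.0037 and 0.00487). Ucp1 fell from 4981 to 2249 CPM and Dio2 from 159 to 23.8 CPM, by -1.15 ± 0.32 and -2.73 ± 0.55 (SE; edgeR adjusted p = 0.0244 and 0.00364). Ryr2 fell by -2.17 ± 0.45 (SE; edgeR adjusted p = 0.00474). Not all genes shared this: Cdh9 and Map7d2 were not called at 5 months (-0.05 and 0.67), and their AL means there were 1.02 and 0.201 CPM, against 5.56 and 2.9 CPM at 26 months.

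**Figure D5:**
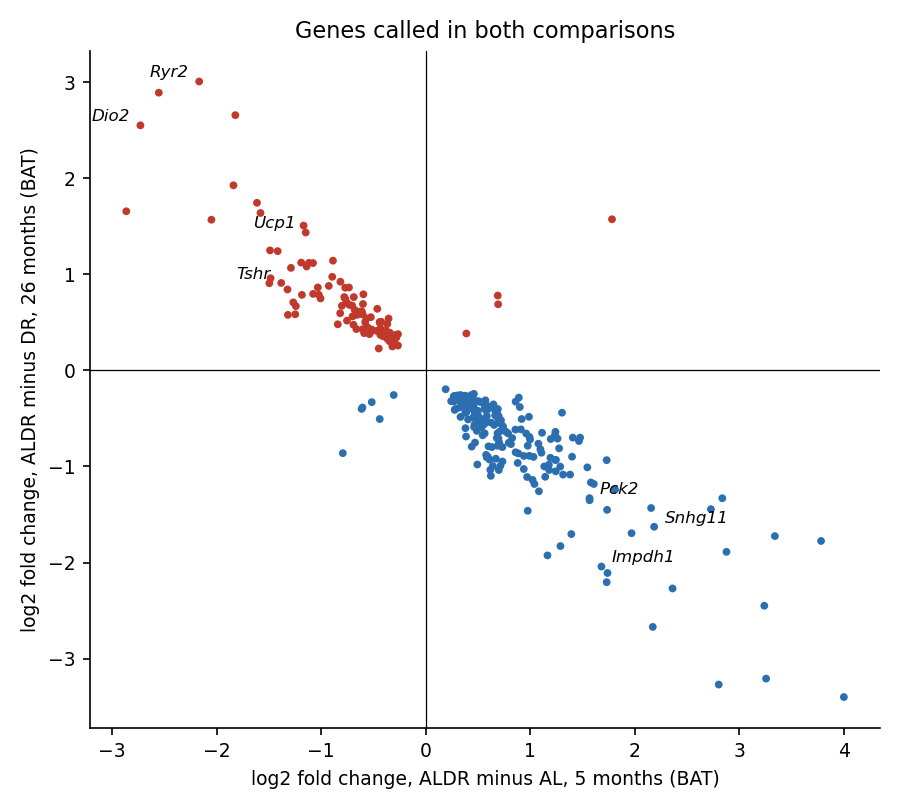
Each point is 1 of the 293 genes called in both comparisons, with the log2 fold change of restriction at 5 months on the x axis and that of ALDR minus DR at 26 months on the y axis; red points are higher and blue points lower in ALDR. All but 10 genes fall in the upper left (95) or lower right (188) part of the plot, which are opposite directions.

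White fat (WAT) of the same diet groups gave the same contrast in other libraries, 5 ALDR against 3 DR, prepared by another protocol. There 2021 of 15828 genes were called (12.8%). Among the 13629 genes tested in both tissues, 122 were called in both, which is 17.4% of the 702 BAT genes and 6.55% of the 1862 WAT genes. The direction was the same for 80, 25 higher and 55 lower in ALDR, and opposite for 42, of which 30 were higher in BAT and lower in WAT. Ryr2 and Hp were higher in ALDR in WAT too, by 2.54 and 1.85 (edgeR adjusted p = 0.00814 and 0.00333), and Snhg11, St3gal4 and Grik5 were lower, by -1.97, -0.96 and -1.11 (edgeR adjusted p = 8.72e-06, 0.000133 and 0.0251). Pck2, Kcnj15, Cdh9 and Adrb3 were called in the opposite direction in WAT, at 0.51, -2.75, -1.41 and -0.82. The fatty acid synthesis genes Fasn, Acly, Acaca and Elovl6, not called in BAT, were lower in ALDR than in DR in WAT, at -2.31, -2.58, -2.18 and -3.27. Without BAT DR replicate 1 the shared genes numbered 23, without DR replicates 2 or 3 they were 63 or 65, and without ALDR replicate 4 they were 78. The WAT count itself was 878 without its DR replicate 3 and 1069 without its DR replicate 2.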

How the data were processed

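RNA was measured in 20 BAT libraries, polyA-selected and sequenced as single-end reads of 150 bp per the labels, although the extraction text repeated for them describes another library type. The authors deposited a table of read counts per gene in BAT and another in WAT; values were whole numbers and were used as deposited. The submitters' processing notes name Trim Galore 0.3.7, TopHat2 2.0.14, DESeq2 and the build GRCm38; the counting program, annotation and filters are not given in the sources used here, so overlapping or near-identical genes may share reads. Symbols and coordinates came from GENCODE M21 (GRCm38), which named 25012 of 25913 identifiers, and promoters from RefSeq (GRCm38.p6), which matched 3 of the 6 genes looked up.

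All BAT libraries entered 1 edgeR 4.0.16 quasi-likelihood fit (R 4.3.3; TMM, filterByExpr, BH-adjusted p under 0.05), and all WAT libraries another. Fold changes are log2 with SE, and levels are CPM on TMM-scaled library sizes. The script was tested on simulated data. Libraries within a group were compared by chi-square, and none was a copy of another. The SE come from the quasi-likelihood fit and include the spread between libraries, while the 3-count floors cover counting error only. Alternatives were RLE size factors, no filter, DESeq2 1.42.0, the 2 groups alone, a replicate block, a skeletal muscle covariate and leaving out each of the 8 libraries. An epithelium covariate and the 2 groups without the library with milk protein counts were added after seeing the data, as was the milk protein list.

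Members and lists were chosen with earlier results of these data known. Named genes were the 12 higher and 12 lower called genes of smallest p with at least 1 on the log2 scale, 1 CPM and no overlap; the 6 most abundant called genes; up to 4 called members of each list, or its member of smallest p; 10 genes of interest; and 19 genes named after their values were seen. Liver was left out, and 3 list members are not reported here.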

Additional observations from a re-analysis of the deposited data

Results flagged for a closer look

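Single ALDR libraries lay far from the other 4 of their group (gap to the nearest library above 0.71 of the range, Dixon's 95% limit) for 10 of 101 named genes and 6 of 19 marker sums. Chance flags about 1 in 20 groups. ALDR replicate 1 was the highest for Abcc4 (34.8 CPM), Hk1 (238 CPM), Pfkp (205 CPM), Pcca (384 CPM), Acly (5630 CPM) and Elovl6 (1800 CPM), for the summed brown adipocyte markers (8770 CPM) and for the Schwann cell and neuron markers (258 CPM). It was the lowest for Apoe (251 CPM). ALDR replicate 5 was the highest for Lcn2 (130 CPM), the epithelium and skin sum (426 CPM) and the milk protein sum (60460 CPM). It was the lowest for Ndufb10 (163 CPM), Gstm2 (29.6 CPM) and the thymus sum (129 CPM). ALDR replicate 3 was the highest for the skeletal muscle sum (9645 CPM).

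For 16 named genes all ALDR and DR libraries were separated in both fat tissues but in opposite directions, a difference between tissues that was not tested. Cdh9, Kcnj15, Fam19a5, Pck2 and Tspan4 were named by a rule that required separation in BAT, so that part is not a finding for them. Named genes separated in the same direction were not counted. Of the 122 genes called in both tissues, 80 had the same direction and 42 the opposite. Genes called higher in ALDR in BAT had negative values in WAT for Cdh9 (log2 fold change in WAT -1.41), Kcnj15 (-2.75), Fam19a5 (-1.53), Gnas (-0.37), Adrb3 (-0.82), Abhd5 (-0.29), Etfdh (-0.30), Pcca (-0.54), Elovl3 (-3.84) and Pepd (-0.51). Genes called lower in ALDR in BAT had positive values in WAT for Pck2 (0.51), Tspan4 (0.25), Ckb (0.70), Pygb (0.36), Crip2 (0.54) and Angpt1 (1.07). In WAT, Abhd5, Etfdh, Tspan4, Pygb and Crip2 were not called, with edgeR adjusted p = 0.182, 0.109, 0.0983, 0.0951 and 0.0625, and the other 11 were.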

How the results depend on the processing

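The 722 calls became 1131 with DESeq2, 63 in the fit of only these groups, 336 with the epithelium covariate, 151 in the 2 groups without the library with milk protein counts, and 95 to 822 when 1 library was left out. In WAT the 2021 calls became 1090 with only these groups, 601 with the skeletal muscle covariate and 878 to 2351 without 1 library. The 122 genes shared by both tissues became 238 with DESeq2, 13 with only these groups, 36 with the muscle covariate, 56 with the epithelium covariate, 39 in the 2 groups without the library with milk protein counts and 23 to 132 without 1 library. The replicate block gave 267 calls in BAT, 1334 in WAT and 42 shared; under it 5 of the 6 higher heat-production genes were not called (edgeR adjusted p from 0.0501 for Ucp1 to 0.103 for Elovl3), and Dio2 was (0.0468). The labels give the numbers no meaning beyond a name. Deviations of same-numbered libraries correlated at 0.144, 0.0902 and 0.419, and DR replicates 1 and 3 correlated best with the ALDR library of their own number but DR replicate 2 with ALDR replicate 4, so the numbers were not taken as pairs. RLE size factors gave 730 calls in BAT and no filter 551. The cause of these shifts was not tested.

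Of 79 called named genes none changed sign under the 16 alternatives; 32 were called under all and 34 without DR replicate 1. Signs changed for 5 uncalled genes: Lcn2 (-0.09 with the epithelium covariate), Lep (-0.015 to 0.95 without 1 library, main 0.69), Fasn (-0.047 with the muscle covariate, -0.17 to 0.12 without 1 library), Acly (0.092 with the replicate block, 0.20 with the epithelium covariate, 0.14 in the 2 groups without the milk protein library, -0.67 to 0.17 without 1 library) and Elovl6 (0.05, 0.063 and 0.06 in those 3 fits, -0.24 to 0.20 without 1 library). Genes under about 0.489 CPM lie below 3 counts in the shallowest library.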

Other observations

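Further genes were named after their values were seen. Those of this paragraph are among the 52 genes called under all 16 alternatives. They were picked with their values known, so keeping the call is no separate support for them. Mttp, which loads lipid onto lipoproteins, was at 9.75 to 15.3 CPM in ALDR and 21.4 to 28 CPM in DR (log2 fold change -0.94 ± 0.16 (SE); edgeR adjusted p = 0.00306). Angpt1, a ligand of the endothelial Tie2 receptor, was at 15.5 to 26.9 CPM in ALDR and 41.2 to 52.8 CPM in DR (-0.99 ± 0.17 (SE); edgeR adjusted p = 0.00302), while the summed endothelial markers overlapped, at 856 to 1081 and 917 to 1122 CPM. Slc5a6, a transporter of biotin and pantothenate, differed by -0.62 ± 0.09, the carbonyl reductase Cbr1 by -0.79 ± 0.10 and the sorting receptor gene Sorcs2 by -1.89 ± 0.29 (SE). Med10, a Mediator subunit, was at 24.2 to 38.2 CPM in ALDR and 15.1 to 15.5 CPM in DR (1.00 ± 0.14 (SE); edgeR adjusted p = 0.00105), and the dipeptidase Pepd was higher by 0.75 ± 0.12 (SE).

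The Ugt1a locus gave 9 called entries. These glucuronosyltransferase transcripts share exons, so the entries cannot be taken as separate genes. Ugt1a1 (chr1:88211959-88218997, plus strand) was at 6.81 to 9.05 CPM in ALDR and 14.2 to 16.6 CPM in DR (-0.90 ± 0.15 (SE); edgeR adjusted p = 0.00317). Among marker lists of other cell types 3 genes were called, all higher in ALDR, beside 1.94% higher and 3.27% lower over all genes. Nnat was 1 of 6 tested white adipocyte markers (1.62 ± 0.41) and Gpnmb 1 of 8 lipid-associated macrophage markers (1.52 ± 0.36). Fbln1 was 1 of 12 fibroblast markers (1.12 ± 0.25, all SE). The remaining lists of this kind held no call. None of these 3 genes was called without DR replicate 1. The summed lipid-associated macrophage markers overlapped, at 2813 to 3491 CPM in ALDR and 2807 to 3274 CPM in DR.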
